A study of Mus musculus with 6 samples.

Results

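The 10 genes described here are classical immediate early genes: Fos, Fosb, Jun, Junb, Jund, Egr1, Arc, Nr4a1, Npas4 and Dusp1. They were matched by gene symbol, with no threshold on a value, and all 10 were found among the 23337 gene symbols of the deposited table. The RNA is from sorted dopaminergic neurons of the SNc (substantia nigra pars compacta), the midbrain nucleus that supplies dopamine to the dorsal striatum. All libraries came from adult C57BL/6 mice with the alleles Sox6-FSF-Cre, Th-2A-Flpo and RC-Frepe, and the tissue of both groups was dissociated with papain before sorting. Neurons sorted by GFP express Sox6 (Sox6+, 3 libraries) and neurons sorted by mCherry do not (Sox6-, 3 libraries), and each group has libraries numbered 103, 825 and 1211. The Flp recombinase is made from the Th locus and the Cre recombinase from the Sox6 locus, and recombination is permanent, so that the reporter can also record past expression. The question was how these genes compare between both populations, library by library.

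Immediate early genes are transcribed within minutes of a stimulus without new protein synthesis. Calcium entry and growth factor signals reach them through the MAP kinases and the transcription factors CREB and SRF, which bind the cyclic AMP response element (CRE) and the CArG box of their promoters. In neurons they are used as a record of recent activity, and enzymatic dissociation and sorting are also known to induce them. Tissue that had not been dissociated was not analysed here, so that induction before and during the preparation cannot be told apart in these levels.

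The 6 libraries held between 10397924 and 12952768 reads in genes. Values are normalized read counts, that is, reads divided by a size factor per library, and are given as mean ± SD over 3 libraries. Whether each library is a separate animal is not stated in the labels, and p-values cover only the spread among these 6 samples, which may be technical. Sox6 itself lay at 389.0 to 840.5 in Sox6+ and at 18.1 to 103.6 in Sox6- libraries. Sox6+ library 825 stood apart. Its 12 microglia and macrophage markers summed to 31483.8, against 9.27 to 77.9 in the other 5 libraries, and were led by Lyz2, at 26494.1. These markers did not all rise there. Ctss and Tyrobp lay at 3543.6 and 1035.1 in it and at 0 elsewhere, but Tmem119, Aif1, C1qa and C1qb were at 0 in it. P2ry12 lay at 26.2, below Sox6+ library 1211 (31.4). In Sox6+ library 825, 92 of 8845 genes with a mean of at least 100 were at 0, against 19 to 31 in the other 5. The 9 dopaminergic markers summed to between 100360.9 and 197721.1 in Sox6+ and between 36323.0 and 126018.8 in Sox6- libraries, and none of them was at 0 in all libraries. The 7 markers of GABAergic neurons summed to between 14.8 and 7070.4 in Sox6+ and between 4460.3 and 15561.6 in Sox6- libraries. Markers of astrocytes, endothelial cells, pericytes and red blood cells summed to at most 105.9 in any library. Those of oligodendrocytes summed to 2106.6 in Sox6+ library 825 and to at most 392.3 elsewhere, and both precursor markers were at 0 throughout. In sorted pools, fewer cells of a type and less RNA per cell cannot be told apart.

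Promoter windows are shown for 4 genes, because they set a gene of large difference (Fos), one of smaller difference (Jun), a gene nearly silent in Sox6+ neurons (Npas4) and a gene at nearly the same level in both groups (Dusp1) beside the elements through which such genes are induced. Each window holds the 250 bases before the RefSeq start of the gene in GRCm38.p6, 5′ to 3′ on the gene's own strand. They lie at chr12:85473640-85473889 on the plus strand for Fos, and on the minus strand at chr4:95052223-95052472 for Jun, chr19:4989972-4990221 for Npas4 and chr17:26508473-26508722 for Dusp1. Capitals mark matches, on either strand, to the motifs named after the sequences.
Fos: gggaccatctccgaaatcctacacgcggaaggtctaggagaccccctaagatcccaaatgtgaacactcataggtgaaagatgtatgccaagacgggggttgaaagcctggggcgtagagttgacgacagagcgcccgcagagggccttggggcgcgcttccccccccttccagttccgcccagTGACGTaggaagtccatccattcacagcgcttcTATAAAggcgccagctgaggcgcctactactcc
Jun: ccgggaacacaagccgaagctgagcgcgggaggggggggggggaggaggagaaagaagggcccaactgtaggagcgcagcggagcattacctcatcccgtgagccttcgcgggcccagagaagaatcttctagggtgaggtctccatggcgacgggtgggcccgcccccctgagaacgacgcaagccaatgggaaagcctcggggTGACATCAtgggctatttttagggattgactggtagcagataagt
Npas4: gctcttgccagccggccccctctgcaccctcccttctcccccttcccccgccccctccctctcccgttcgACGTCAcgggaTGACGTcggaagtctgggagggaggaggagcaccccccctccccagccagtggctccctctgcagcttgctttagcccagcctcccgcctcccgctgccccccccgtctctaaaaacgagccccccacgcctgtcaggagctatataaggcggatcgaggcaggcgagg
Dusp1: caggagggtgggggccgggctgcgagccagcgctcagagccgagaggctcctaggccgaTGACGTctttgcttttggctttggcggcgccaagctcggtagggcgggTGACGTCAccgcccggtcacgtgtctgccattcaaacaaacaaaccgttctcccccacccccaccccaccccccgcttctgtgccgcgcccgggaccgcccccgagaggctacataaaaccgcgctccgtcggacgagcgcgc

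The hexamer TGACGT, the core of a CRE, was found in the windows of Fos, Npas4 and Dusp1, 3 of the 8 genes with a window, and in 6.47% of 32851 windows of this length over all genes. Dusp1 also held the full palindrome TGACGTCA, found in 1.55% of windows, which contains the hexamer on both strands. Npas4 held the hexamer in both orientations, at bases -180 to -175 and -169 to -164 from the start. In Fos it lay at bases -66 to -61, upstream of a TATAAA at -33 to -28, a motif of 12.4% of windows. The window of Jun held TGACATCA, a variant AP-1 site, at bases -45 to -38, and 2.93% of all windows hold it. GCGNGGGCG, the EGR site, was found in the windows of Fosb and Nr4a1 and in 4.7% of all windows. The AP-1 letters TGACTCA or TGAGTCA (4.46% of windows) and the CArG box (1.47%) were in none of the 8 windows. Egr1 and Arc had no window. The window of Jund ended at chr8:70697738, upstream of the annotated start of the gene at 70698949. The bases directly before that start were therefore not scanned. The hexamer was thus shared by 2 genes whose Sox6- libraries all lay above the Sox6+ libraries and by 1 whose groups overlapped. These matches describe letters only.

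Immediate early genes had higher means in Sox6- neurons. Of the 10 genes, 9 passed the filter on low values (mean of 10 or more across libraries), and Npas4, at 6.57, did not. All 9 had a positive log2 difference of Sox6- minus Sox6+, as had 51.9% of the 13175 genes tested, and their median was 1.19 against 0.02 over all tested genes. In Fos, Jun, Jund and Egr1 the 3 Sox6- libraries all lay above the 3 Sox6+ libraries. That is 4 of 9 genes, against 9.19% of all tested genes. No gene of the 9 passed an adjusted p of 0.05 in limma with Benjamini-Hochberg adjustment, where 0.304% of all tested genes did (0.175% with Sox6- higher). At an unadjusted limma p under 0.05 there were 3 (Fos, Jun and Jund, all higher in Sox6- neurons), against 6.17% of all tested genes in that direction and 11.4% in either. EdgeR on recovered reads called 0 of the 9 and 0.0455% of all tested genes. DESeq2 on those reads called 2, Fos and Jund, and called 1.66% of all genes higher in Sox6- neurons and 2.98% in either direction. In the authors' deposited table the same 2 genes passed, both higher in Sox6- neurons, where 1.58% of genes with an adjusted p were called in that direction.

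**Figure D1:**
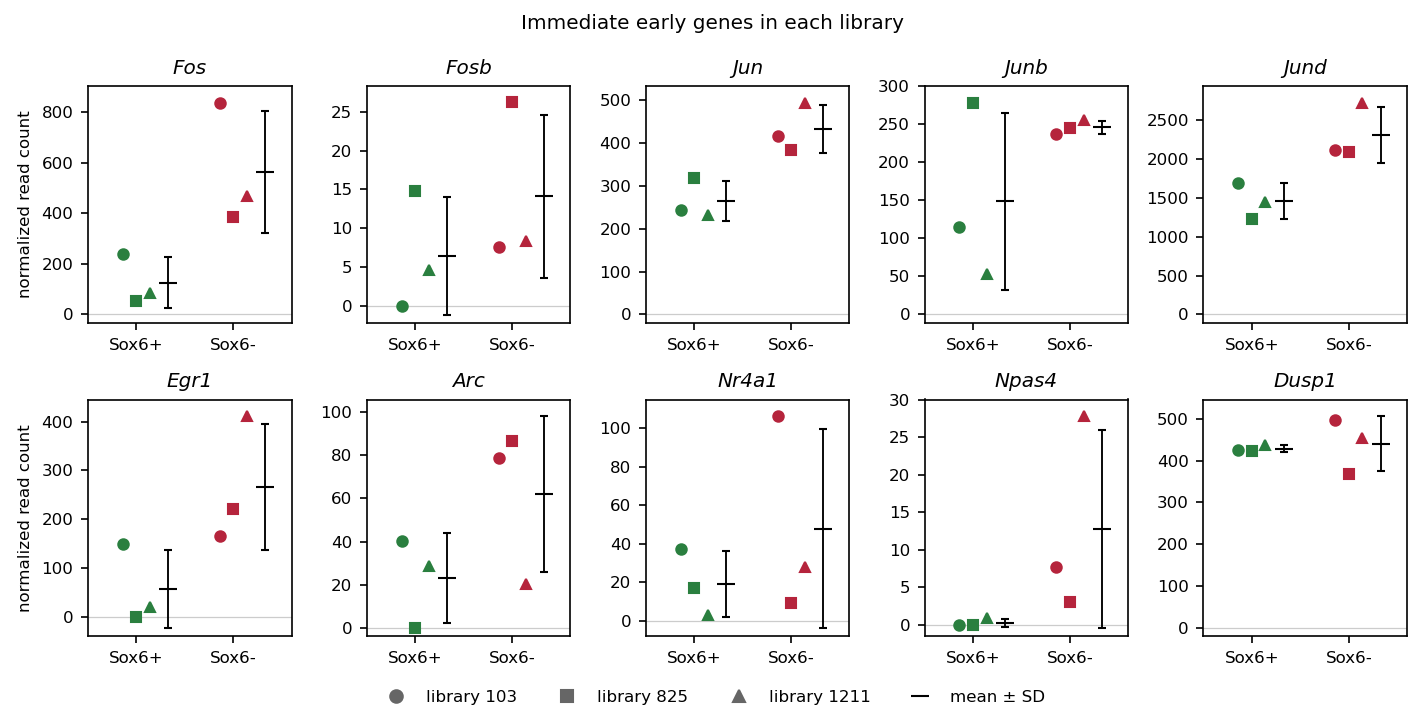
Normalized read count (vertical axis, linear) of each of the 10 genes in the 3 Sox6+ libraries (green) and the 3 Sox6- libraries (red), with circles, squares and triangles for library numbers 103, 825 and 1211 and a black bar for mean ± SD. Fos, Jun, Jund, Egr1 and Npas4 show no overlap between the groups, while the means of Dusp1 lie at 428.6 in Sox6+ and 440.0 in Sox6- libraries.

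Fos encodes a leucine zipper protein that pairs with Jun proteins to form the transcription factor AP-1. Its level was 239.7, 52.4 and 83.2 in Sox6+ libraries 103, 825 and 1211, and 836.6, 384.7 and 469.3 in their Sox6- counterparts. Every Sox6- library was above every Sox6+ library, and library 103 was the highest of each group. The means were 125.1 ± 100.5 and 563.5 ± 240.2 (SD, n = 3 each), 4.5-fold higher in Sox6- neurons. Within a number, the Sox6- library was 3.49-fold, 7.34-fold and 5.64-fold higher for 103, 825 and 1211. The fitted log2 difference, 2.38 (standard error 0.546), was larger in size than that of 94.6% of tested genes. The adjusted p was 0.144 in limma, 0.278 in edgeR and 0.00631 in DESeq2 on the recovered reads, and the authors' deposited table gives 0.00502. By exact permutation of the libraries (two-sided), p was 0.1, and 3 against 3 allow no smaller value. Without Sox6+ library 103, the highest of its group, the difference was 2.99 and passed in limma (adjusted p = 0.0115), as did 0.774% of tested genes in that direction. Without Sox6+ library 825 it was 1.91 (adjusted p = 0.25, limma), and with 1 library or 1 number left out in turn the adjusted p ran from 0.0115 to 0.964. Fos spans chr12:85473890-85477273 (GRCm38, plus strand), and no other annotated gene overlaps it.

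Fosb, the closest relative of Fos, was barely detected. It had 0, 13 and 5 reads in Sox6+ libraries 103, 825 and 1211 and 8, 26 and 9 in the Sox6- libraries. The groups overlapped, through Sox6+ library 825, and library 825 held the most reads in both groups. The log2 difference was 1.54, its standard error 1.43 (adjusted p = 0.716, limma), so that a difference was not detectable at this depth. It was 0.47 without Sox6+ library 103, which had no read, and 2.46 when Sox6+ library 825 was left out. Omitting the Sox6- library of 825 gave 1.01.

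Jun, the founding partner of Fos in AP-1, lay at 242.7, 317.7 and 231.0 in Sox6+ libraries 103, 825 and 1211, whereas Sox6- neurons held 416.4, 383.7 and 492.5. The groups did not overlap, and the nearest values, 317.7 and 383.7, both came from number 825. Sox6- neurons were 1.63-fold higher by the means, 263.8 ± 47.0 and 430.8 ± 55.8 (SD, n = 3 each). The log2 difference of 0.71 had a standard error of 0.236, an unadjusted p of 0.0137 and an adjusted p of 0.296 (limma).

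Junb, a Jun relative with weaker transactivation, lay at 115.4, 277.8 and 52.7 in Sox6+ libraries 103, 825 and 1211 and at 237.0, 244.7 and 255.0 in the Sox6- libraries. The Sox6- libraries were nearly equal, with an SD of 0.05 on the log2 scale, whereas the Sox6+ libraries spread with an SD of 1.19. Sox6+ library 825 was the highest of all 6, the only one of the 9 tested genes for which this was so, and it alone made the groups overlap. With it the log2 difference was 1.03 (adjusted p = 0.489, limma), and without it 1.64 (adjusted p = 0.208, limma, the lowest over all libraries left out, the highest being 0.964). Without Sox6+ library 1211, the lowest of its group, it was 0.45 (adjusted p = 0.737, limma). Sox6+ library 825 also held the macrophage markers given above, and their part in its Junb reads was not tested. Without Sox6+ library 825, 6 of the 9 tested genes had Sox6- libraries that all lay above the Sox6+ libraries. Fosb and Junb were added, and the share over all tested genes was 14.3%.

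Jund, a Jun gene known for steady expression in many tissues, had the highest level of the members. In the order 103, 825 and 1211, Sox6+ neurons held 1687.9, 1230.9 and 1440.7 and Sox6- neurons 2105.8, 2090.7 and 2715.5. The groups did not overlap, and their means were 1453.2 ± 228.8 and 2304.0 ± 356.5 (SD, n = 3 each), 1.59-fold higher in Sox6- neurons. The log2 difference of 0.67 had a standard error of 0.176 and an adjusted p of 0.191 in limma. DESeq2 on recovered reads gave an adjusted p of 0.03, and the authors' deposited table gives 0.0345. Without Sox6+ library 825 the limma difference was 0.55 (adjusted p = 0.364), and over all libraries left out its adjusted p ran from 0.0893 to 0.964.

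Each Jun gene overlaps an annotated gene of the opposite strand. Jun spans chr4:95049034-95052222 (minus strand), with the antisense gene Junos on the opposite strand. Junb, at chr8:84974484-84978718 (minus strand), overlaps Prdx2, a peroxiredoxin gene of the opposite strand. Jund, at chr8:70698949-70700616 (plus strand), overlaps the antisense gene Gm11175. The library kit keeps strand, but the strand setting of the counting is not given in the sources used here, so that reads of these partners cannot be set apart with certainty.

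Egr1 encodes a zinc finger transcription factor that binds GC-rich sites such as the one marked by GCGNGGGCG. It lay at 149.0, 0.0 and 20.3 in Sox6+ libraries 103, 825 and 1211 and at 165.0, 220.5 and 412.7 in the Sox6- libraries. The groups did not overlap, but Sox6+ library 103 lay only just below Sox6- library 103, a ratio of 1.11 within that number against 20.3 within 1211. The 0 in Sox6+ library 825 allows up to 3.42 on the normalized scale (3 reads), and it enlarges the log2 difference, which was 4.07 with a standard error of 1.74 (adjusted p = 0.449, limma). Without that library the difference was 2.13 (adjusted p = 0.456, limma, within a range of 0.0752 to 0.964 over libraries left out). By the means, 56.4 ± 80.8 and 266.1 ± 130.0 (SD, n = 3 each), Sox6- neurons were 4.72-fold higher. Its SD between libraries of a group, 2.62 on the log2 scale, was above that of 96.9% of tested genes.

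Arc encodes a cytoskeleton-associated protein that drives the uptake of AMPA receptors at synapses. It lay at 40.4, 0.0 and 28.6 in Sox6+ libraries 103, 825 and 1211 and at 78.7, 86.6 and 20.4 in the Sox6- libraries. The groups overlapped, because Sox6- library 1211 lay below 2 of the Sox6+ libraries. The log2 difference of 2.31 (adjusted p = 0.562, limma) rested on the 0 of Sox6+ library 825, without which it was 0.60 (adjusted p = 0.85, limma, within a range of 0.304 to 0.964 over libraries left out).

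Nr4a1, the orphan nuclear receptor Nur77, lay at 37.5, 17.1 and 2.77 in Sox6+ libraries 103, 825 and 1211 and at 106.5, 9.06 and 27.8 in the Sox6- libraries. Within number 825 it was lower in the Sox6- library, and within 103 and 1211 higher by 2.84-fold and 10.0-fold. The groups overlapped, and the log2 difference of 1.19 had a standard error of 1.16 (adjusted p = 0.728, limma). Single libraries moved it: leaving out Sox6+ library 1211 gave 0.25 and leaving out Sox6+ library 103 gave 1.93. Among the Sox6- libraries, the omission of 103 gave 0.30 and that of 825 gave 2.01. Its relative Nr4a2, which neurons of this lineage need for their identity and keep expressing, had Sox6+ values of 2479.1, 2316.1 and 2179.0 and Sox6- values of 2098.1, 2672.7 and 1449.6. These groups overlapped too.

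Npas4, a transcription factor that responds selectively to calcium entry in neurons, had 0, 0 and 1 reads in Sox6+ libraries 103, 825 and 1211, against 8, 3 and 30 in the Sox6- libraries. All Sox6- libraries were above all Sox6+ libraries, and most reads came from library 1211. Relative to library totals, Sox6- neurons had 41.3 times the reads of Sox6+ neurons, with an exact 95% binomial interval of 7 to 1670 that covers counting error only. The gene was too low for the limma test, and its adjusted p in the authors' deposited table is 0.265.

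Dusp1, a phosphatase that switches MAP kinases off, was nearly level. It lay at 426.2, 422.5 and 437.1 in Sox6+ libraries 103, 825 and 1211 and at 496.9, 368.6 and 454.4 in the Sox6- libraries. The Sox6+ values lay within the range of the Sox6- values, and the log2 difference was 0.03, with 0.205 as its standard error (adjusted p = 0.973, limma). Its sign turned without Sox6- library 103 or 1211 and without number 103. The annotated gene spans chr17:26505590-26562128 (minus strand) and overlaps Ergic1 on the opposite strand.

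**Figure D2:**
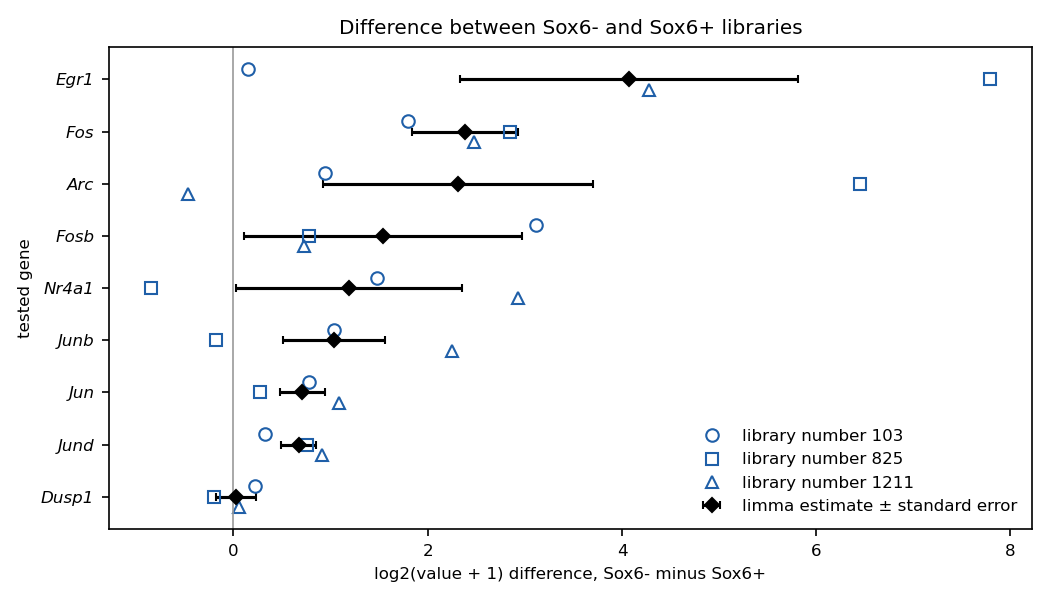
Log2(value + 1) difference of Sox6- minus Sox6+ (horizontal axis) for the 9 tested genes, with the limma estimate and its standard error in black and the difference within each library number as open blue symbols. All estimates lie at or to the right of 0, and the numbers disagree most for Egr1 and Arc, which were at 0 in Sox6+ library 825.

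The difference was present within each library number, to different extents. The Sox6- library was the higher one in 9 of 9 tested genes for number 103, in 6 for 825 and in 8 for 1211. Over all tested genes these shares were 48.9%, 51.0% and 51.7%. The median difference of the 9 genes was 0.94, 0.76 and 1.09 on the log2 scale. Fos, Fosb, Jun, Jund and Egr1 were higher in the Sox6- library of all 3 numbers, as were 20.6% of all tested genes. Junb and Nr4a1 went the other way in 825 only, Arc in 1211 only and Dusp1 in 825 only.

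The spread between libraries of 1 group differed among the members. Their median SD was 0.89 on the log2 scale, against 0.41 over all tested genes. Egr1, Arc, Nr4a1 and Fosb had an SD above that of 88.6% to 96.9% of tested genes, whereas Jun, Jund and Dusp1 had an SD above that of only 20.9%, 21.6% and 10.1%. Fos and Junb lay between, at 79.0% and 77.6%. Egr1, Arc and Fosb were each at 0 in a Sox6+ library, which enlarges the SD, and genes were not matched by level.

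Per kilobase of merged exon, the order of the levels was led by Jund in both groups, at 871.2 ± 137.1 in Sox6+ and 1381.3 ± 213.7 in Sox6- neurons (SD, n = 3 each). In Sox6+ neurons Dusp1 (129.4 ± 2.3) came next, followed by Jun (82.7 ± 14.7), Junb (64.6 ± 50.5) and Fos (53.2 ± 42.7), and the ranges of the last 3 overlapped. In Sox6- neurons Fos came next after Jund, at 239.6 ± 102.1 normalized reads per kilobase, above the ranges of Jun (135.1 ± 17.5) and Dusp1 (132.9 ± 19.7), which overlapped. By their means, Egr1, Arc and Nr4a1 came below Junb and Fos, in this order, in both groups. In Sox6+ neurons the ranges of Fos and Egr1, of Egr1 and Arc, and of Arc and Nr4a1 overlapped. In Sox6- neurons those of Arc and Nr4a1 did. The range of Nr4a1 also overlapped that of the next gene below in both groups. Fosb and Npas4 were the lowest, at 1.04 and 0.0745 in Sox6+ and 2.25 and 3.1 in Sox6- neurons, with overlapping ranges within each group.

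Across the 6 libraries, the order of Fos was close to that of the GABAergic markers. From high to low, Fos ran Sox6- 103, 1211 and 825, then Sox6+ 103, 1211 and 825. The summed GABAergic markers ran in the same order, except that Sox6+ library 103 (7070.4) lay above Sox6- library 825 (4460.3). The dopaminergic sum was lowest in Sox6- libraries 1211 and 103 and highest in Sox6+ library 825. The part of these other transcripts in the Fos difference was not tested. The 7 markers behind that sum did not move together. Gad1, a GABA-synthesizing enzyme, lay at 508.6 in Sox6- library 825, below Sox6+ libraries 103 (4797.5) and 1211 (1244.8), and its groups overlapped. Gad2, its relative, lay there at 645.5, below Sox6+ library 103 (1679.1) and above Sox6+ library 1211 (193.1). Sst, the neuropeptide somatostatin, was higher in Sox6- neurons, at 3958.3, 3164.2 and 5814.1 in libraries 103, 825 and 1211 against 0.0 to 1.97 in Sox6+ libraries (adjusted p = 3.31e-05, limma), and made up most of the sum in Sox6- library 825. Npy, neuropeptide Y, lay at 10.6, 48.3 and 166.0 in Sox6- libraries and at 0.0 in the Sox6+ libraries (adjusted p = 0.184, limma). Pvalb had the higher mean in Sox6+ libraries, 423.1 against 85.0. In libraries 103, 825 and 1211 it lay at 400.5, 0.00 and 868.7 in Sox6+ and at 60.4, 66.5 and 128.0 in Sox6- neurons. Slc32a1 lay at 191.4, 5.69 and 34.2 against 305.1, 27.2 and 141.0, and Gata3 at 14.8 or less. Groups overlapped in each of these. In Sox6- library 825 Fos lay at 384.7, against a highest Sox6+ value of 239.7. Th, which encodes tyrosine hydroxylase, lay there at 51430.7, within the Sox6+ range of 29970.6 to 63184.0.

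**Figure D3:**
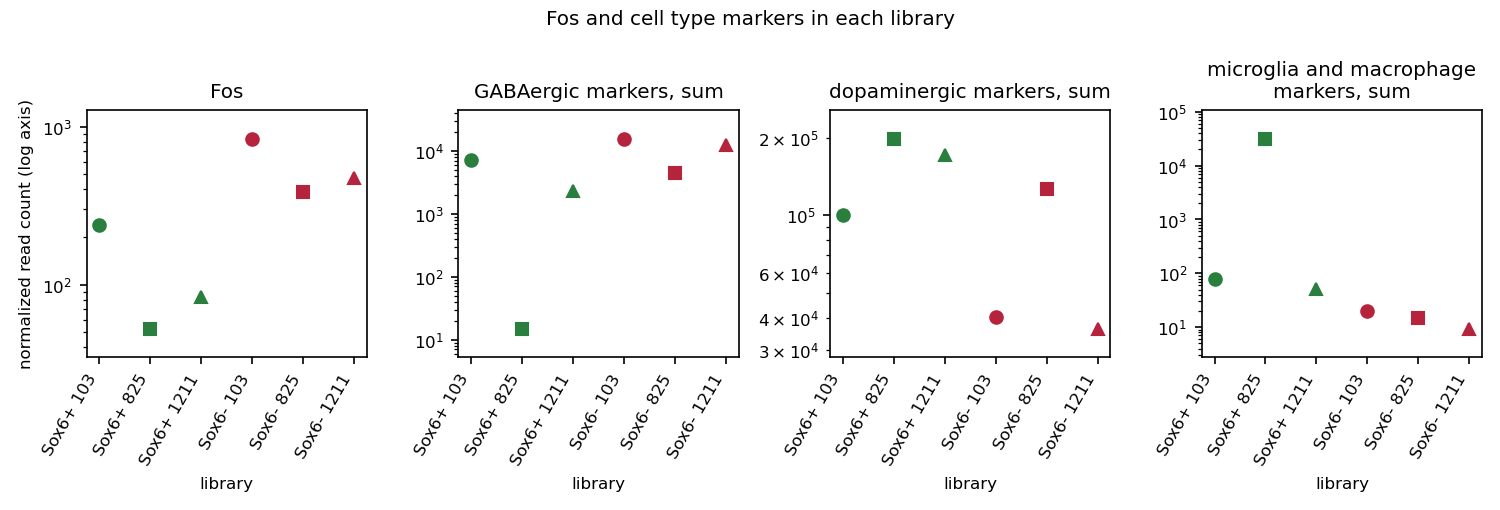
Normalized read count of Fos and summed normalized read counts of 3 lists of cell type markers (vertical axes, logarithmic) in each library, Sox6+ in green and Sox6- in red, with symbols for the library numbers. Fos and the GABAergic sum are lowest in Sox6+ library 825, where the macrophage sum reaches 31483.8.

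Other immediate early genes had a smaller median difference. Of 41 further genes of this class, 31 were tested, 22 of them with a positive difference, and their median was 0.11. In limma 0 passed, against 0.304% of all tested genes, and 5 of 31 had an unadjusted p under 0.05, against 11.4%. EdgeR called 0 (0.0455% of all tested genes) and DESeq2 on recovered reads called 1, Egr4 (2.98% of all tested genes). Egr4, a zinc finger relative of Egr1, had no read in any Sox6+ library and lay at 50.8, 103.7 and 19.5 in Sox6- libraries 103, 825 and 1211. With 177 reads in the Sox6- libraries it was at least 59.4-fold higher there, with a floor of 3 reads for the whole Sox6+ group, which covers counting error only. Its adjusted p was 0.136 in limma, and the authors' deposited table gives 4.25e-05. Klf10, a Krüppel-like factor, averaged 40.1 ± 22.8 in Sox6+ against 98.2 ± 12.1 among Sox6- libraries, and the stress gene Gadd45g at 303.6 ± 30.1 against 453.4 ± 57.1 (SD, n = 3 each). Arl4d, a small GTPase, went the other way, at 97.2 ± 60.5 against 21.9 ± 8.17. The groups did not overlap in these 3 genes, and their adjusted p ran from 0.268 to 0.394 (limma). Over the list, Sox6- lay above Sox6+ without overlap in 4 of 31 genes, against 9.19% of all tested genes. Sox6+ lay above Sox6- without overlap in 2 of 31, against 7.86% of all tested genes.

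Sox6+ library 825 was the highest of all 6 libraries in 10 of the 31, namely Fosl2, Ier2, Klf4, Klf6, Zfp36, Myc, Arl4d, Nfkbia, Mcl1 and Rgs2, and in 25% of all tested genes. Zfp36, which destabilizes cytokine mRNAs, lay at 49.0 there and at 0.0 to 12.1 elsewhere. Ier2 lay at 165.1 there, against 26.2 to 53.3 elsewhere. The summed macrophage markers were also highest in that library, and their part in these values was not tested. These genes were named after their values had been seen.

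Genes of the later response to activity were split. Of 11 tested, 5 had a positive difference, with a median of -0.04, 0 passed in limma or edgeR (0.304% and 0.0455% of all tested genes), and 5 of 11 had an unadjusted limma p under 0.05 (11.4% of all tested genes). Vgf, the precursor of secreted peptides, lay at 265.4, 212.9 and 203.3 in Sox6+ libraries 103, 825 and 1211 and at 1135.9, 326.3 and 1123.1 in the Sox6- libraries. The groups did not overlap, as in 9.19% of all tested genes with Sox6- above, and 2 of the Sox6- libraries were far above the third. Its log2 difference was 1.72 (adjusted p = 0.21, limma). It passed without Sox6- library 825 at 2.32 (adjusted p = 0.0253, limma, up to 0.964 over libraries left out). Vgf was the 1 gene of the list that DESeq2 called (adjusted p = 0.00118). DESeq2 called 2.98% of all tested genes in either direction and 1.66% higher in Sox6- neurons. The neurotrophin gene Bdnf lay at 951.7 ± 226.1 against 1787.6 ± 672.3 with overlapping groups, and Scg2, a secretory granule protein, at 37033.4 ± 3234.3 against 48450.3 ± 3434.8. Nrn1, the gene of neuritin, lay the other way at 1995.9 ± 357.3 against 1248.9 ± 262.4 (SD, n = 3 each).

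Signalling genes that act upstream also had a small median difference. Of 36 genes of the induction pathway, 35 were tested, 24 had a positive difference and the median was 0.17. In limma, edgeR and DESeq2 0 passed, against 0.304%, 0.0455% and 2.98% of all tested genes. An unadjusted limma p under 0.05 was found for 6 of 35, against 11.4% of all tested genes. The SRF coactivator Mkl2 averaged 256.9 ± 103.1 in Sox6+ against 453.3 ± 47.4 among Sox6- libraries, and the transcription factor Mef2c at 34.2 ± 12.6 against 124.0 ± 67.8 (SD, n = 3 each). The CREB coactivator Crtc1 had a log2 difference of 0.86 (adjusted p = 0.362, limma). Mapk9, a Jun kinase, was the other way round, at 2708.4 ± 582.4 against 1807.2 ± 123.1. Among 10 partners of AP-1, 7 were tested, with a median of 0.01 and 0 at an unadjusted limma p under 0.05 (11.4% of all tested genes). Atf4, Atf7 and Jdp2 had differences of -0.42, -1.44 and -0.32 and Maf one of 2.54, all with overlapping groups.

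Of 9 MAP kinase phosphatases besides Dusp1, 6 were tested, with a median of 1.31. Past the threshold were 0 in limma, edgeR or DESeq2, against 0.304%, 0.0455% and 2.98% of all tested genes. The libraries did not overlap for Dusp16, a phosphatase of the Jun kinases, with means of 10.8 ± 8.27 in Sox6+ and 57.6 ± 25.6 in Sox6- neurons (SD, n = 3 each, adjusted p = 0.296, limma). Sox6- lay above Sox6+ without overlap in 9.19% of all tested genes. Dusp6, Dusp2 and Dusp10 had differences of 2.97, 1.85 and 0.77 with overlapping groups, and Dusp7 and Dusp8 had differences of -0.34 and -0.03. Dusp6 was at 0 in Sox6+ library 825, and its difference was 1.11 without that library. Single Sox6+ libraries also moved Dusp2, to 0.72 on leaving out 103 and 2.85 on leaving out 825. They moved Dusp10 to 0.37 when 1211 was omitted and to 1.18 when 825 was omitted.

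Of 14 heat shock genes, which respond to protein damage, 13 were tested. A negative difference was found for 10 and a positive one for 3 (Hspa1b 0.83, Hsf1 0.36 and Dnajb1 0.16), and the median was -0.21. In limma, edgeR and DESeq2 0 passed, against 0.304%, 0.0455% and 2.98% of all tested genes. An unadjusted limma p under 0.05 was found for 3 of 13, against 11.4% of all tested genes. The same 3 had Sox6+ libraries above the Sox6- libraries without overlap, as had 7.86% of all tested genes: Hspa8, a constitutive chaperone, at 44849.1 ± 3340.1 against 36828.4 ± 3008.3, Hsp90ab1 at 27878.8 ± 2999.4 against 22684.0 ± 1383.1, and the mitochondrial co-chaperone Hspe1 at 3061.6 ± 252.8 against 2367.5 ± 192.3 (SD, n = 3 each). Hspb1, a small heat shock protein, lay at 47.3 ± 37.4 against 8.17 ± 6.57, with overlapping groups.

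**Figure D4:**
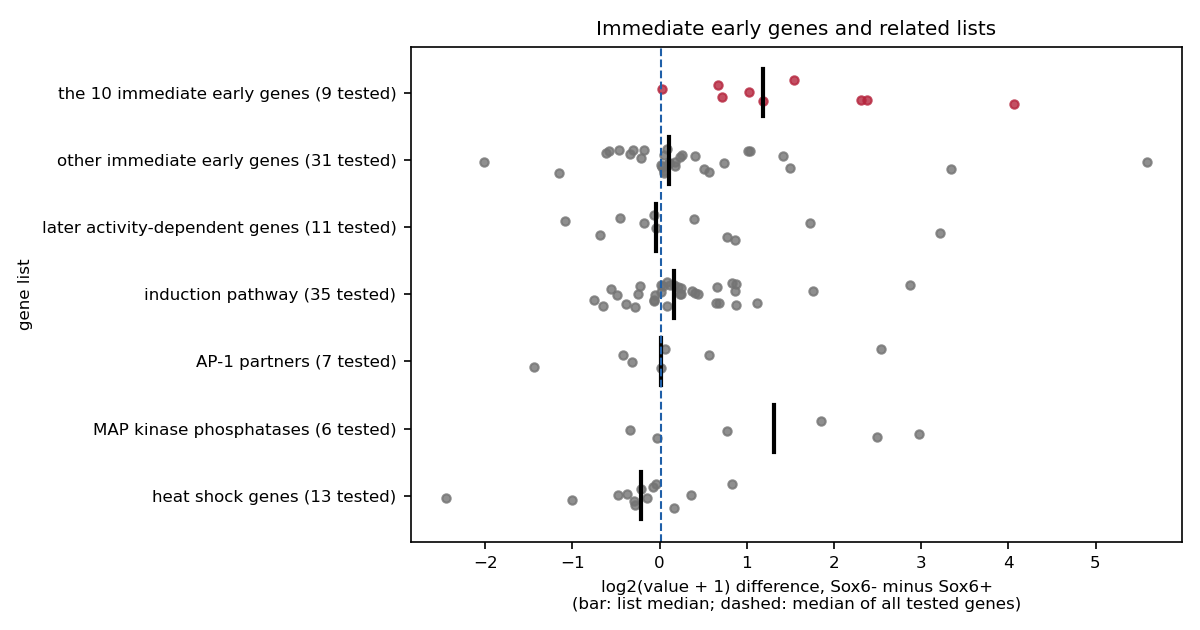
Log2(value + 1) difference of Sox6- minus Sox6+ (horizontal axis) for each tested gene of 7 lists (1 point per gene, spread vertically for legibility), with the median of each list as a black bar and the median of all tested genes, 0.02, as a dashed line. The 9 tested immediate early genes (red) lie at or above 0.03 with a median of 1.19, and the 31 other immediate early genes have a median of 0.11.

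Genes whose pattern over the 6 libraries was most like that of the members were found by correlation with the median of the 9 tested genes, each centred on its own mean. Over 9740 genes with a mean of at least 50, Pearson's r was highest for Sec22a (0.992), Tmem109 (0.991), Pde4dip (0.990), Frmpd3 (0.986) and Ranbp3 (0.986). The 6 points are libraries and share their depth and their sort. The median itself separated the groups, at -0.53 to -0.02 in Sox6+ and 0.47 to 0.56 in Sox6- libraries. The 5 genes were picked for their high r, and how high r would run without any relation was not tested. Frmpd3 had the largest difference of these, at 86.8, 60.4 and 49.0 in Sox6+ libraries 103, 825 and 1211 and 143.9, 172.2 and 199.4 in the Sox6- libraries. None of the 5 passed in limma (adjusted p from 0.19 to 0.513). Among pairs of members, r was highest for Jund with Egr1 (0.89), Fos with Jund (0.89) and Fos with Egr1 (0.88). It was lowest for Fosb with Dusp1 (-0.30), Fosb with Nr4a1 (-0.23) and Junb with Arc (-0.22), and 0.02 for Fos with Fosb.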

How the data were processed

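Midbrain cells were dissociated with papain and sorted, and RNA of the neurons was sequenced after stranded mRNA library preparation, per the labels' protocols. Tools named in the submitters' processing notes are STAR, HTSeq, DESeq2, cutadapt and FastQC, with GRCm38 and mm10 as builds. Versions and settings were not given in the sources used. In the deposited table each value is a normalized signal, reads over the size factor of the library, for 6 libraries. It also holds their mean and the authors' DESeq2 test as a log2 fold change, a score, a p-value and an adjusted p-value. Whole reads were recovered, 100.0% of values above 0 being whole multiples of the value of 1 read within 0.01. Library totals ranged from 10397924 to 12952768 reads.

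Genes with a mean of at least 10 (13175) were tested with limma 3.58.1 (trend, robust) on log2(value + 1), two-sided, without a block, with Benjamini-Hochberg adjustment over all of them. A log2 difference is on that scale: the pseudocount damps the change of low genes, while a library at 0 among higher ones enlarges it. EdgeR 4.0.16 and DESeq2 1.42.0 (R 4.3.3) on recovered reads were alternatives, and the limma fit was tested on simulated data. The median of all tested genes lay at 0.02. Named genes were the 10 members, the 4 of smallest p of each of 6 related lists, and the 5 most alike genes. Members and lists were chosen with earlier results of these data known. Others named were chosen after their values were seen. Loci and merged exons are from GENCODE M21, promoters from RefSeq (GRCm38.p6).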

Additional observations from a re-analysis of the deposited data

How the results depend on the processing

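Over 19 alternatives, 33 named genes kept their direction and side of the threshold in 606 of the fits. They passed only under the alternative in 9, and Dusp1 turned sign in 3: -0.07 without number 103 or without the Sox6- library of 103, and -0.00 without that of 1211, in a range of -0.07 to 0.15 when libraries were left out. As reported, limma called 23 genes higher and 17 lower in Sox6- neurons, with 0 immediate early genes among them and a median difference of 1.19 for these. A pseudocount of 8 gave 35 and 34 genes and a median of 0.84, no filter 14 and 7 with 1.37, a filter at 50 a median of 0.87, and quantile normalization 39 and 30 with 0.81. EdgeR called 5 and 1 genes and DESeq2 216 and 171, with 2 immediate early genes. Leaving out 1 library or 1 number, counts ran from 1 (without Sox6- library 1211, number 825 or number 1211) to 102 (without Sox6+ library 103) higher and from 0 to 59 lower in Sox6- neurons, those of immediate early genes from 0 to 1 (Fos, without Sox6+ library 103 or number 103) and the median from 0.54 (without number 1211) to 1.64 (without number 825). The cause of these shifts was not tested.

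With the library number as a replicate block, limma called 133 genes higher and 134 lower in Sox6- neurons and edgeR 57 and 63. The 1 immediate early gene among them was Fos in both (adjusted p = 0.00567 in limma and 0.0235 in edgeR). Same-numbered libraries deviated from their group means with correlations of 0.268, 0.172 and 0.079 for 103, 825 and 1211. Each library correlated best with its own number, which is a hint from the data and not from the design. Depth limits Npas4, Fosb and Egr4, which had few reads or none in Sox6+ libraries.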
